A study of Mus musculus with 46 samples.

Results

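Claudins are the membrane proteins that build tight junctions, and the genes described here are the 8 claudin genes Cldn1, Cldn2, Cldn3, Cldn4, Cldn6, Cldn7, Cldn12 and Cldn14, taken by their symbols from a table of 21671 mouse genes. They were followed in liver tumours driven by Myc, in such tumours after Myc was switched off, in tumours driven by a Myc mutant, and in normal liver. All 8 passed the filter on low values described below, so every one of them was tested.

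The samples came from FVB mice. Myc-off tumours (8 libraries, 3 animal IDs) carried a tet-Myc transgene and were taken after doxycycline in the food had kept it switched off for 16 hours. MycVD tumours (11 libraries, 10 IDs) were driven by tet-Myc whose V394D substitution impairs the contact of Myc with the transcription factor Miz1. Myc tumours (16 libraries, 7 IDs) were driven by wild-type tet-Myc that was on. In all tumours the transgene was under LAP-tTA, a transactivator active in liver cells from before birth, so each tumour model reports on Myc expressed in that lineage. Control livers (11 libraries, 11 IDs) are labelled as control or normal liver. Their transgenes, and the age of any mouse, are not given in the labels. IDs are the numbers in the sample titles and were taken to be animals, which is an assumption. Tumours that share an ID were averaged, so n counts IDs and not tumours. If an ID is not an animal, the p-values measure only the spread between these samples.

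Tight junctions seal the space between neighbouring epithelial cells, and in liver they separate bile in the canaliculus from blood. Each claudin spans the membrane several times and pairs with claudins of the next cell, and the mixture of claudins sets which ions and solutes can pass. Sealing claudins such as claudin-1 and claudin-3 tighten the barrier, whereas claudin-2 forms a pore for cations and water. Claudin-4 and claudin-7 belong to many ductal and gut epithelia, and claudin-6 is known mainly from embryonic and fetal epithelia.

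Libraries held 3.25 to 12.65 M reads, as recovered from the steps of the deposited values (median 7.14 M in Myc-off tumours, 7.81 in MycVD tumours, 9.65 in Myc tumours and 7.32 in control livers). Levels are given in eRPKM, the authors' exonic reads per kilobase and library size, and are therefore per length. The highest gene over 500 bp of each library reached 1461 to 2182 reads per kb. This maximum hardly followed depth, at 1461 in the library of 3.25 M reads and 1738 in that of 12.65 M. The claudins stayed below it, at most 1002 reads per kb (Cldn6 in Myc-off ID153344 tumour A, maximum 1563). Cldn3 reached 946 in control ID128988 (maximum 1589). Whether levels nearer the maximum, and fold changes from them, were compressed was not tested. Shares and ranks between genes carry the same limit. In 8 libraries (control ID125322, 5 Myc tumours and 2 MycVD tumours) Gapdh lay under 30 eRPKM, apart from all others. The ID numbers of Myc-off tumours are above all others and those of MycVD tumours above those of Myc tumours, so in comparisons of Myc-off tumours, and of MycVD with Myc tumours, date or batch and group cannot be told apart. Control IDs lie among those of Myc tumours and also above them. Expression was measured in bulk tissue, where fewer cells of a type and less RNA per cell cannot be told apart.

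The mixture of claudin transcripts differed between the groups in both amount and composition. The 8 genes summed to 381.7 ± 130.2 eRPKM in Myc-off tumours (SD, n = 3 IDs), 151.1 ± 56.3 in MycVD tumours (n = 10), 93.3 ± 11.0 in Myc tumours (n = 7) and 331.1 ± 34.6 in control liver (n = 11). Cldn4, Cldn6 and Cldn7 together made up 31.6% ± 12.9 of that sum in Myc-off tumours, 22.9% ± 12.9 in MycVD tumours, 15.2% ± 6.0 in Myc tumours and 0.325% ± 0.127 in control liver. The other 5 genes supplied the rest: in control liver Cldn3 held 28.2% ± 3.45, Cldn1 24.1% ± 2.22, Cldn2 22.6% ± 2.15, Cldn12 19.2% ± 2.23 and Cldn14 5.55% ± 1.33. In Myc tumours the largest single share was that of Cldn12, at 38.1% ± 5.96, and Cldn3 held 5.48% ± 3.85. Splitting the genes into these 2 sets followed their values and is a description only.

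**Figure D1:**
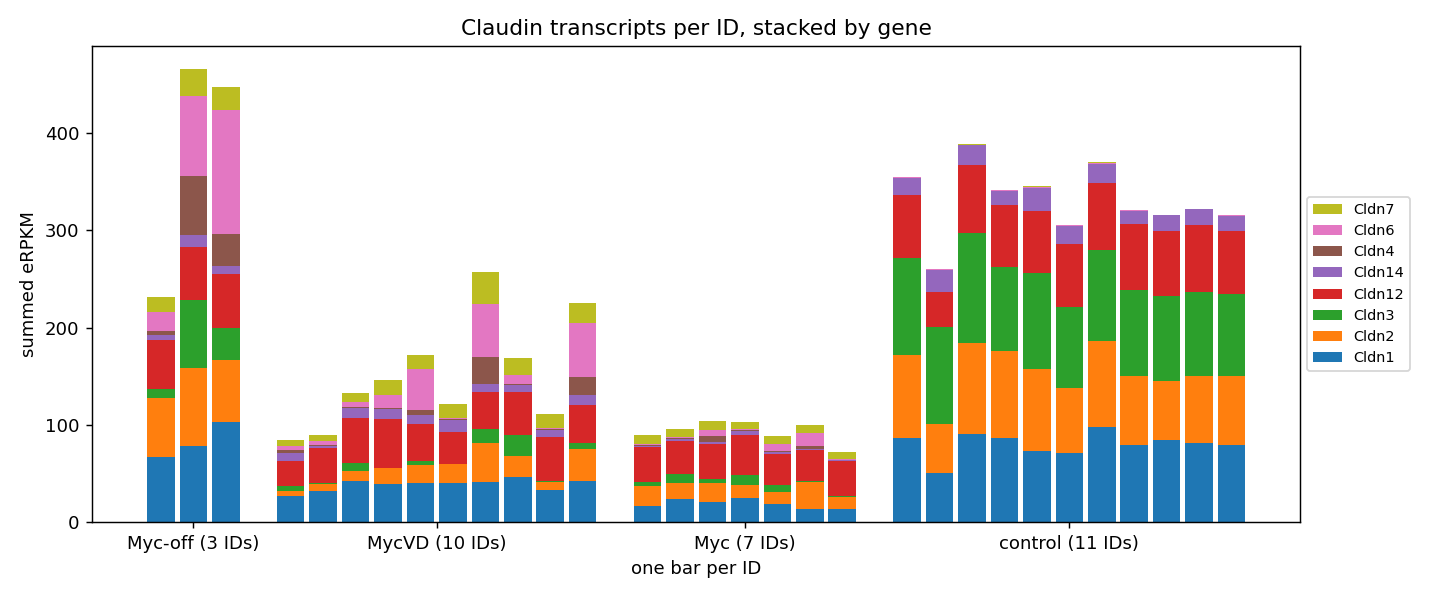
Summed eRPKM of the 8 claudin genes, with 1 bar per ID and 1 colour per gene, in Myc-off, MycVD, Myc and control IDs. Myc tumour bars reach 72.2 to 103.7 eRPKM and control bars 260.7 to 389.0, and Cldn4, Cldn6 and Cldn7 are hardly visible in control bars.

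Setting Myc tumours against control liver describes the claudins of an established tumour. Cldn1, Cldn2, Cldn3, Cldn12 and Cldn14 were lower and Cldn4, Cldn6 and Cldn7 were higher. In this comparison 50.4% of all 14566 tested genes were called higher and 29.7% lower, so that 3 of 8 claudins higher and 5 of 8 lower stand beside a background in which most genes were called. The median log2 fold change of the 8 was -1.46, against 0.28 over all tested genes. Median-ratio scaling brought the median of all genes to 0.05 and the share of higher genes among all calls to 52.1%, against 62.9% as deposited. Calls are adjusted p under 0.05 by limma with Benjamini-Hochberg adjustment over all tested genes, and all adjusted p-values below come from that fit. Fold changes are differences of log2(eRPKM + 0.5), which understates the change of low genes.

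**Figure D2:**
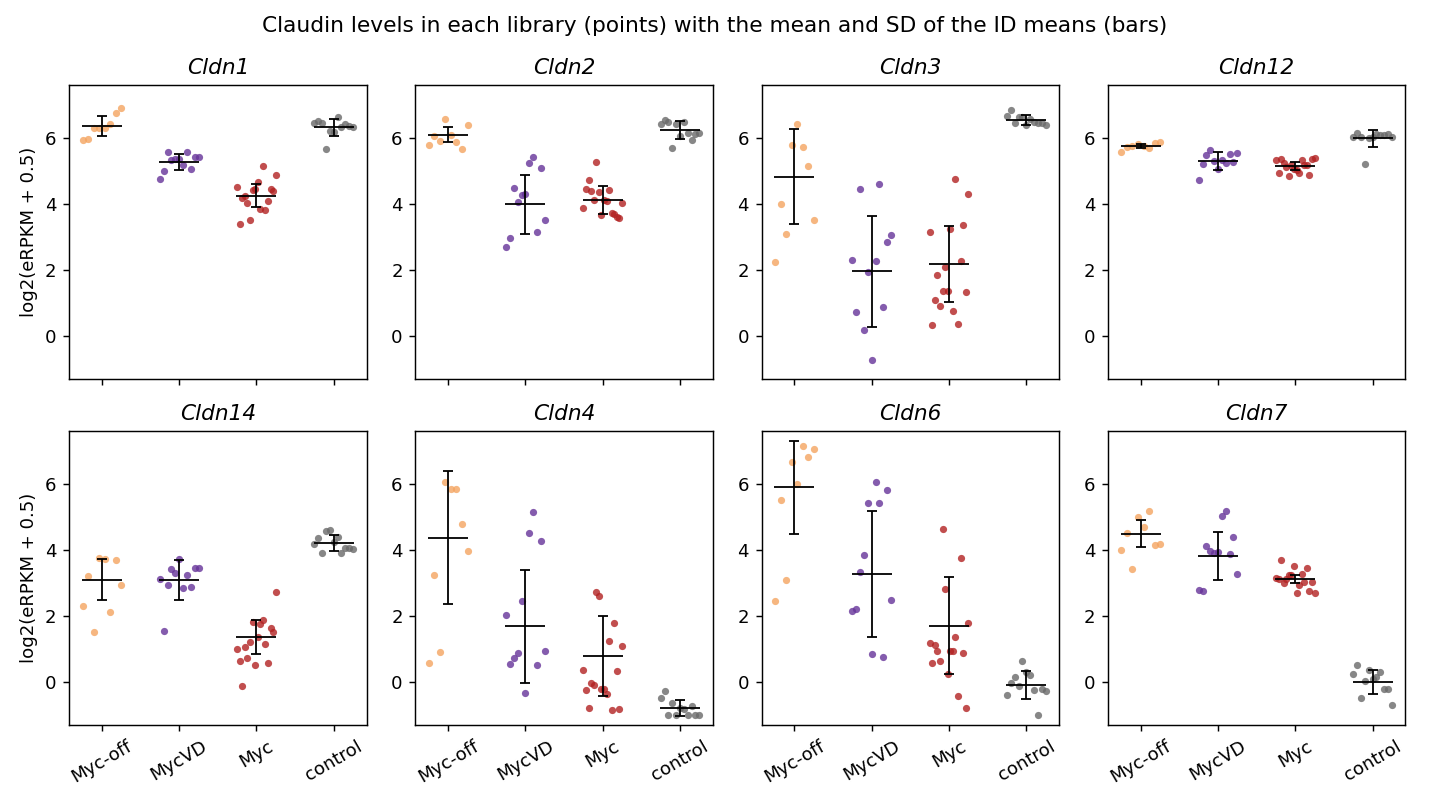
Level of each claudin gene as log2(eRPKM + 0.5), with 1 point per library and bars for the mean and SD of the ID means, in Myc-off, MycVD, Myc and control samples. Cldn1, Cldn2, Cldn3, Cldn12 and Cldn14 are high in control liver, and Cldn4, Cldn6 and Cldn7 lie near the bottom of the scale there.

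Cldn1, a sealing claudin found in most epithelia, lay between 10.1 and 34.7 eRPKM in the 16 Myc tumour libraries (median 19.3), against 50.5 to 97.8 in the 11 control libraries (median 81.5). The groups did not overlap, and the log2 fold change was -2.08 ± 0.13 (SE, adjusted p = 1.7e-15). Cldn2, the cation and water pore, ran from 11.4 to 38.1 eRPKM in Myc tumours (median 16.6) and from 50.7 to 93.2 in control livers (median 70.8), again without overlap. Its log2 fold change was -2.10 ± 0.26 (adjusted p = 1.6e-08). In rat liver claudin-2 protein is known to increase from the portal towards the central vein.

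Cldn3, which encodes a sealing claudin, had the lowest fold change of the 8 in Myc tumours. It had 0.752 to 26.3 eRPKM in Myc tumours (median 2.56), against 83.8 to 113.4 in control livers (median 88.7), a log2 fold change of -4.36 ± 0.54 (adjusted p = 1.1e-08). Control livers were close to each other in this gene, while the Myc tumours spread widely below them. Cldn14, known from liver and kidney and, in humans, from inherited deafness, had 0.419 to 6.05 eRPKM in Myc tumours (median 1.77), against 14.3 to 23.5 in control livers (median 17.4). It fell by 2.84 ± 0.22 on the log2 scale (adjusted p = 4.6e-13), with no overlap. Cldn12, a claudin without the usual PDZ-binding end, changed less: 28.3 to 41.4 eRPKM in Myc tumours (median 35.5), against 36.1 to 69.7 in control livers (median 65.0) and a log2 fold change of -0.83 ± 0.11 (adjusted p = 3.7e-08). Only control ID125322, at 36.1 eRPKM and one of the libraries with low Gapdh, lay within the range of the Myc tumours.

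Cldn7, whose protein binds EpCAM, was the clearest gain. It had 5.90 to 12.3 eRPKM in Myc tumours (median 8.09), against 0.113 to 0.907 in control livers (median 0.564), with 70 to 162 reads per Myc library and 1 to 11 per control library. The log2 fold change was 3.11 ± 0.23 (adjusted p = 9.4e-14). The Myc tumours were tightly grouped, with ID means of 8.18 ± 0.773 eRPKM.

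Cldn4, which like Cldn3 encodes a receptor of a clostridial enterotoxin, had 0.049 to 6.11 eRPKM in Myc tumours (median 0.451), against 0 to 0.331 in control livers (median 0.068). In control livers this rested on 13 reads in 11 libraries, and the 5 libraries at 0 reads allow levels of up to 0.185 to 0.294 eRPKM (3 reads, counting error only). The ID means overlapped, and the log2 fold change was 1.58 ± 0.58 (adjusted p = 0.015). Cldn6, the fetal claudin, had 0.07 to 24.4 eRPKM in Myc tumours (median 1.41), against 0 to 1.04 in control livers (median 0.416, 59 reads in all), a log2 fold change of 1.80 ± 0.63 (adjusted p = 0.011) with overlapping ID means. Neither call held under every setting. With quantile normalisation the log2 fold changes were 1.10 for Cldn4 (adjusted p = 0.087) and 1.28 for Cldn6 (adjusted p = 0.067). Both calls were also lost with a depth term (1.26 for Cldn4, adjusted p = 0.16, and 1.46 for Cldn6, adjusted p = 0.13) and with only the control IDs up to the highest Myc ID (1.48, adjusted p = 0.069, and 1.62, adjusted p = 0.063). Cldn6 did not pass with limma voom on recovered reads (2.47, adjusted p = 0.065), and without Myc ID126947, which had the highest Cldn4 of the 7, Cldn4 stood at 1.27 (adjusted p = 0.051).

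Among Myc tumours of the same ID, Cldn3, Cldn4 and Cldn6 differed as much as between IDs. The SD among tumours of an ID, over the 5 IDs with several tumours and on the log2 scale, was 1.47 for Cldn3, 1.02 for Cldn4 and 1.35 for Cldn6, and the SD of the 7 ID means was 0.93, 1.15 and 1.23 for the same genes. For Cldn7 and Cldn12 these values were 0.33 and 0.18 within IDs, and 0.13 for each between ID means. In Myc ID128992 Cldn6 was at 1.03 eRPKM (16 reads) in tumour A and at 24.4 (466 reads) in tumour B, and Cldn4 at 0.430 in tumour A and 6.11 in tumour B. Tumour B is one of the libraries with low Gapdh. In Myc ID126948 tumour A had 1 read each of Cldn4 and Cldn6, and tumour C had 24 and 36 reads. In both IDs the same tumour had more of both genes.

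**Figure D3:**
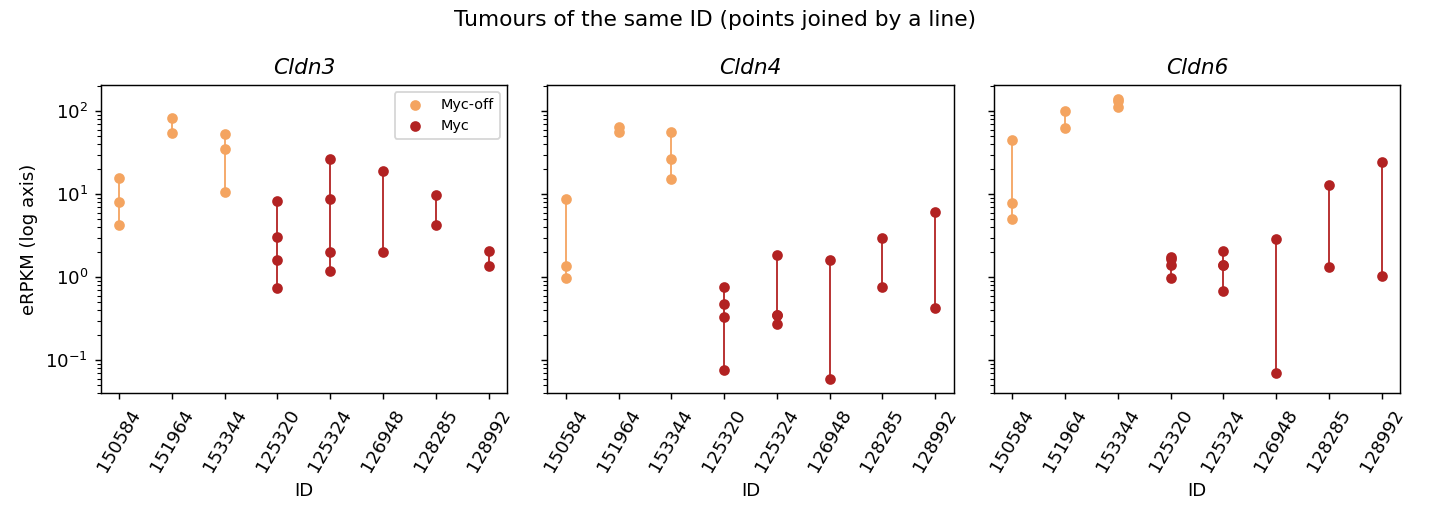
Levels of Cldn3, Cldn4 and Cldn6 in eRPKM on a log axis for every ID with several tumours, with 1 point per tumour and a line from the lowest to the highest tumour of an ID, for Myc-off and Myc IDs. In Myc ID126948 the tumours differ 41.55-fold in Cldn6 and 27.7-fold in Cldn4, and in Myc-off ID151964 they differ 1.60-fold and 1.16-fold.

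Myc-off tumours were set against Myc tumours, a comparison between different IDs that differ in 16 hours of switch-off. All 8 claudins were higher, including the 5 that were lower in Myc tumours than in control liver, and none was lower. In the same comparison 22.8% of all tested genes were called higher and 28.0% lower. The median log2 fold change of the 8 was 2.05, and that of all tested genes was 0. This comparison shares its Myc tumours with the comparison above.

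Of the claudins of normal liver, Cldn1 had 60.8 to 118.5 eRPKM in Myc-off tumours (median 78.4), against 10.1 to 34.7 in Myc tumours, and rose by 2.12 ± 0.18 on the log2 scale (adjusted p = 6.0e-11). Cldn2 had 49.5 to 94.8 eRPKM in Myc-off tumours (median 63.2), above all Myc tumours, with a log2 fold change of 1.98 ± 0.38 (adjusted p = 5.6e-05). For both genes all 3 Myc-off IDs were above all 7 Myc IDs. Cldn12 had 46.8 to 58.3 eRPKM in Myc-off tumours, above the highest Myc tumour at 41.4, and rose by 0.61 ± 0.16 (adjusted p = 1.6e-03). Cldn14 had 2.35 to 12.9 eRPKM in Myc-off tumours (median 7.95), against 0.419 to 6.05 in Myc tumours. It rose by 1.74 ± 0.32 (adjusted p = 3.0e-05).

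Cldn3 had 4.22 to 84.1 eRPKM in Myc-off tumours (median 25.2), against 0.752 to 26.3 in Myc tumours, a log2 fold change of 2.64 ± 0.76 (adjusted p = 4.5e-03). Its 3 Myc-off IDs were far apart: ID151964 averaged 69.3 eRPKM, ID153344 32.7 and ID150584 9.28, and the last lay within the range of the Myc IDs. Without ID151964 the log2 fold change was 1.99 (adjusted p = 0.067), and without ID150584 it was 3.41.

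Cldn6 and Cldn4, the claudins of fetal and ductal epithelium, had the largest rises of the 8. Cldn6 had 4.99 to 140.8 eRPKM in Myc-off tumours (median 81.8), against 0.07 to 24.4 in Myc tumours, a log2 fold change of 4.19 ± 0.90 (adjusted p = 2.5e-04). At 76.3 ± 54.6 eRPKM (SD, n = 3 IDs) it was on average the second most abundant of the 8 in these tumours, after Cldn1 at 82.7 ± 18.6, a difference well within the spread of the IDs. Cldn4 had 0.980 to 65.4 eRPKM in Myc-off tumours (median 21.0), against 0.049 to 6.11 in Myc tumours, and rose by 3.58 ± 0.83 (adjusted p = 5.7e-04). The sizes depended on single IDs, though both calls held: Cldn4 stood at 2.80 without ID151964 and 4.72 without ID150584, and Cldn6 at 3.63 without ID153344 and 4.98 without ID150584. Cldn7 had 10.2 to 35.2 eRPKM in Myc-off tumours (median 19.9), against 5.90 to 12.3 in Myc tumours, and rose by 1.38 ± 0.32 (adjusted p = 6.8e-04). Myc-off ID150584 was the lowest of its group in all 8 claudins, at 3.74 eRPKM for Cldn4 against 60.8 and 32.9 in the other two IDs. Within that ID tumour B had 44.8 eRPKM of Cldn6, and tumours A and C had 4.99 and 7.96.

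Cell type markers moved in the same comparison. Of 12 tested markers of bile duct cells, 8 rose in Myc-off tumours over Myc tumours and none fell, and the 16 listed genes summed to 158.7 to 376.0 eRPKM per Myc-off library, against 70.5 to 154.3 per Myc library. The keratin gene Krt7 averaged 23.7 ± 13.1 eRPKM in Myc-off tumours and 1.33 ± 0.866 in Myc tumours, and Krt19 11.9 ± 11.3 and 0.396 ± 0.457. Sox9, the transcription factor of the duct lineage, averaged 2.22 ± 1.69 eRPKM in Myc-off tumours and 0.201 ± 0.144 in Myc tumours. The 2 most abundant genes of that list differed less: Cd24a averaged 82.1 ± 27.6 in Myc-off and 50.04 ± 30.5 in Myc tumours (adjusted p = 0.20), and Spp1 35.7 ± 15.5 and 15.2 ± 8.06 (adjusted p = 0.040). Of 15 hepatocyte markers 12 rose and none fell, where Myc libraries were deeper (median 9.65 M reads, against 7.14 in Myc-off tumours). The part of depth in these marker counts, and of these cells in the claudin changes, was not tested.

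Set against control liver, Myc-off tumours fell into 3 patterns. In that comparison 37.3% of all tested genes were called higher and 20.9% lower, and the control livers are those used above. Of all calls 64.1% were higher as deposited and 49.2% with median-ratio scaling. Cldn1 and Cldn2 were not called: Cldn1 averaged 82.7 ± 18.6 eRPKM in Myc-off tumours and 80.2 ± 12.4 in control liver (log2 fold change 0.04 ± 0.17, adjusted p = 0.86), and Cldn2 68.4 ± 10.9 and 75.3 ± 13.6 (-0.13 ± 0.36, adjusted p = 0.78). The sign for Cldn1 turned with median-ratio scaling (-0.15), and that for Cldn2 with quantile normalisation (0.07). Cldn12 likewise stood at -0.23 ± 0.15 (adjusted p = 0.19), but at -0.31 without control ID125322 (adjusted p = 0.021). It was also called lower with median-ratio scaling (-0.412, adjusted p = 0.021) and with array weights (-0.255, adjusted p = 0.024). The same held with every tumour as its own sample (-0.231, adjusted p = 0.035) and without the libraries with low Gapdh (-0.305, adjusted p = 0.0015). Cldn14 averaged 8.59 ± 3.88 eRPKM in Myc-off tumours and 18.1 ± 3.23 in control liver (-1.10 ± 0.30, adjusted p = 2.2e-03), and Cldn3 37.1 ± 30.3 and 92.8 ± 9.24 (-1.72 ± 0.72, adjusted p = 0.042). Both calls were lost without Myc-off ID150584, where Cldn14 stood at -0.805 (adjusted p = 0.050) and Cldn3 at -0.95 (adjusted p = 0.35). The call of Cldn3 was also lost with a pseudocount of 0.1 (-1.74, adjusted p = 0.086), quantile normalisation (-1.51, adjusted p = 0.065) and no filter on low values (-1.72, adjusted p = 0.056). Early control IDs only (-1.78, adjusted p = 0.081) lost it too. So did leaving out Myc-off ID153344 (-1.83, adjusted p = 0.078), control ID128988 (-1.69, adjusted p = 0.052) or the low-Gapdh libraries (-1.71, adjusted p = 0.059). Cldn4 (5.16 ± 0.78, adjusted p = 1.6e-06), Cldn6 (5.99 ± 0.85, adjusted p = 5.2e-07) and Cldn7 (4.49 ± 0.31, adjusted p = 1.4e-13) were higher, with no overlap of the ID means. With 1 ID left out, Cldn4 ran from 4.37 without ID151964 to 6.30 without ID150584, and Cldn6 from 5.43 without ID153344 to 6.78 without ID150584. Markers moved here too: 8 of 12 tested bile duct markers were higher and none lower, and 8 of 9 erythroid markers were higher. Of 5 gut and pancreas markers 3 were higher and 1 lower. All 12 fetal liver genes were higher, and all 10 pericentral genes were lower. The counts higher and lower were 0 and 4 of 15 for hepatocytes and 1 and 5 of 12 for endothelium. They were 4 and 1 of 9 for macrophages and 3 and 4 of 10 for stellate cells. The part of these markers in the claudin results was not tested.

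**Figure D4:**
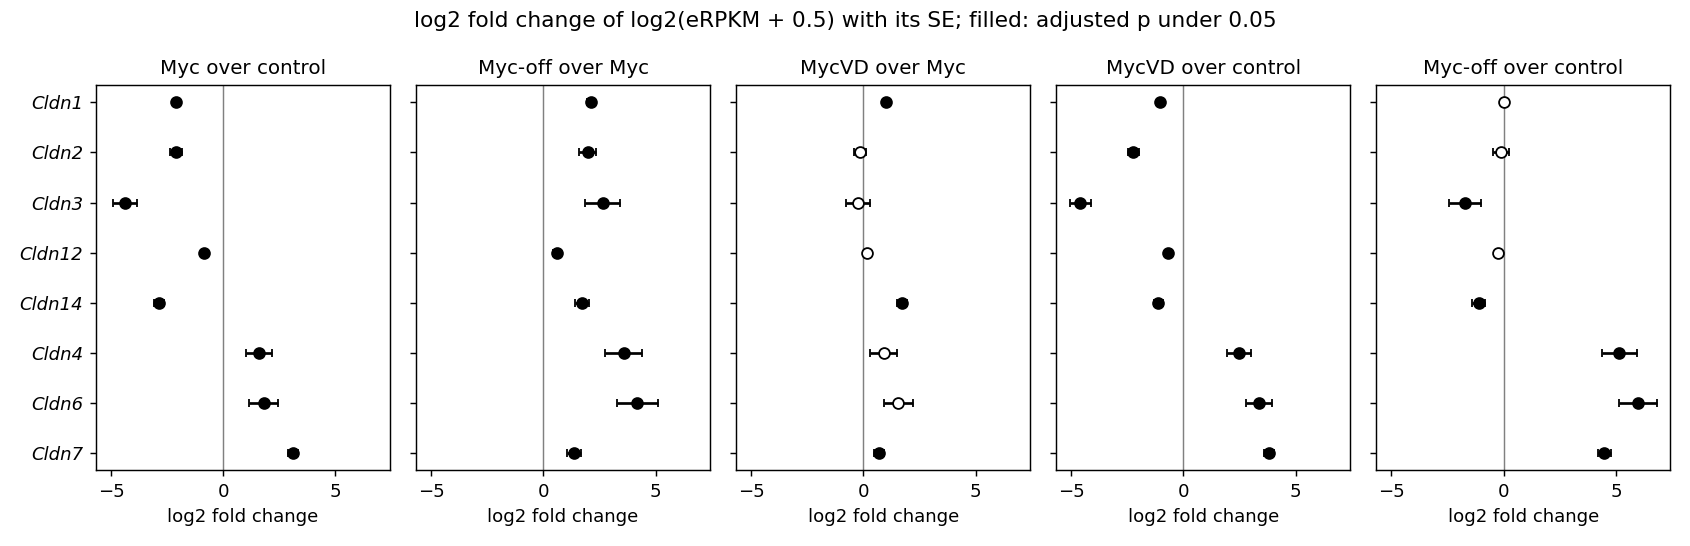
log2 fold change of each claudin on the log2(eRPKM + 0.5) scale with its SE in the 5 comparisons, where filled points have adjusted p under 0.05. All 8 points are right of 0 in Myc-off over Myc tumours, and in MycVD over Myc tumours the filled points are those of Cldn1, Cldn7 and Cldn14.

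Setting MycVD against Myc tumours asks what a substitution that impairs Miz1 binding changes. Cldn1, Cldn14 and Cldn7 were higher and no claudin was called lower, where 6.14% of all tested genes were called higher and 9.69% lower. Of all calls 38.8% were higher as deposited, 54.0% with median-ratio scaling and 61.3% with a depth term. The median log2 fold change of the 8 was 0.80, against -0.05 over all tested genes. Cldn1 had 26.7 to 47.4 eRPKM in the 11 MycVD libraries (median 40.4), against 10.1 to 34.7 in Myc tumours (median 19.3). All 10 MycVD IDs were above all 7 Myc IDs, and the log2 fold change was 1.03 ± 0.13 (adjusted p = 2.5e-06). Cldn14 had 2.43 to 12.6 eRPKM in MycVD tumours (median 8.94), against 0.419 to 6.05 in Myc tumours (median 1.77), with 1.72 ± 0.23 (adjusted p = 4.0e-06). Only MycVD ID133079, at 2.43 eRPKM and among the libraries with low Gapdh, lay within the range of the Myc ID means.

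Cldn7 had 6.25 to 35.4 eRPKM in MycVD tumours (median 14.6), against 5.90 to 12.3 in Myc tumours (median 8.09), a log2 fold change of 0.70 ± 0.23 (adjusted p = 0.038). This call was near the threshold: with a pseudocount of 0.1 it stood at 0.72 (adjusted p = 0.089), and without MycVD ID133765, which had the highest level, at 0.56 (adjusted p = 0.068). It was also lost with a depth term (0.815, adjusted p = 0.067). Leaving out most of the single Myc or MycVD IDs lost it too, for example Myc ID130395 (0.68, adjusted p = 0.073) or MycVD ID134668 (0.63, adjusted p = 0.064). Cldn6 had 1.2 to 65.3 eRPKM in MycVD tumours (median 9.49), against 0.07 to 24.4 in Myc tumours (median 1.41), and its difference of 1.55 ± 0.64 did not pass (adjusted p = 0.097). It did pass without the 8 libraries with low Gapdh, at 2.10 (adjusted p = 0.024), and with every tumour as its own sample, at 2.20 (adjusted p = 0.0033). The last setting treats tumours of an ID as independent. With the ID as a random block Cldn6 stood at 2.03 (adjusted p = 0.018). Cldn4 stood at 0.90 ± 0.59 (adjusted p = 0.31), with 0.283 to 34.5 eRPKM in MycVD tumours and 0.049 to 6.11 in Myc tumours.

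The other 3 claudins were not called between the tumour types. Cldn2 averaged 18.1 ± 11.2 eRPKM in MycVD tumours and 17.5 ± 5.54 in Myc tumours (-0.13 ± 0.27, adjusted p = 0.78), Cldn3 6.08 ± 6.85 and 5.26 ± 3.83 (-0.23 ± 0.55, adjusted p = 0.82), and Cldn12 39.5 ± 7.0 and 35.1 ± 3.23 (0.15 ± 0.11, adjusted p = 0.37). With array weights the differences of Cldn2 and Cldn3 turned positive, at 0.17 and 0.15. Between MycVD tumours and control liver, where 49.2% of tested genes were called higher and 31.1% lower, all 8 claudins were called, in the same direction as in Myc tumours. Of all calls there 61.3% were higher as deposited and 51.6% with median-ratio scaling. Cldn1 stood at -1.05 ± 0.12 (adjusted p = 1.2e-09), Cldn2 at -2.24 ± 0.24 (adjusted p = 5.6e-10), Cldn3 at -4.59 ± 0.48 (adjusted p = 4.4e-10), Cldn12 at -0.68 ± 0.10 (adjusted p = 2.4e-07) and Cldn14 at -1.12 ± 0.20 (adjusted p = 8.3e-06). Cldn4 stood at 2.48 ± 0.53 (adjusted p = 8.7e-05), Cldn6 at 3.35 ± 0.57 (adjusted p = 3.7e-06) and Cldn7 at 3.81 ± 0.21 (adjusted p = 5.1e-17).

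MycVD tumours differed widely among themselves. Their ID means spanned 0.283 to 28.3 eRPKM for Cldn4, 1.2 to 56.1 for Cldn6 and 0.101 to 21.3 for Cldn3, whereas Cldn1 spanned 26.7 to 46.8. ID133765 and ID134668 had the highest Cldn4 (28.3 and 18.6 eRPKM), Cldn6 (53.9 and 56.1), Cldn7 (33.6 and 20.6) and Cldn2 (39.8 and 33.2) of the 10. ID133764 had the lowest Cldn3 and Cldn4 and the highest Cldn14, at 12.6 eRPKM.

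Whether claudins varied together was examined over the ID means within the Myc and the MycVD group, in 56 relations adjusted together by the Benjamini-Hochberg method. Cldn4 and Cldn6 gave Pearson's r = 0.849 (permutation p = 1.5e-03, adjusted p = 0.042) and Spearman's rho = 0.818 (permutation p = 5.8e-03, adjusted p = 0.13) over the 10 MycVD IDs, and r = 0.701 without the 2 IDs farthest from the median of Cldn4. Over the 7 Myc IDs the same genes gave r = 0.908 (exact permutation p = 6.5e-03, adjusted p = 0.073) and rho = 0.857 (exact permutation p = 0.024, adjusted p = 0.22), and r = 0.957 without the 2 farthest IDs. Cldn2 and Cldn7 gave r = 0.911 (permutation p = 1.4e-04, adjusted p = 7.8e-03) and rho = 0.939 (permutation p = 2.3e-04, adjusted p = 0.013) over the MycVD IDs, and r = 0.831 without the 2 farthest. Over the Myc IDs that pair gave r = 0.595 (exact permutation p = 0.16, adjusted p = 0.50) and rho = 0.643 (exact permutation p = 0.14, adjusted p = 0.60). The tests were two-sided, and no other relation passed after adjustment.

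**Figure D5:**
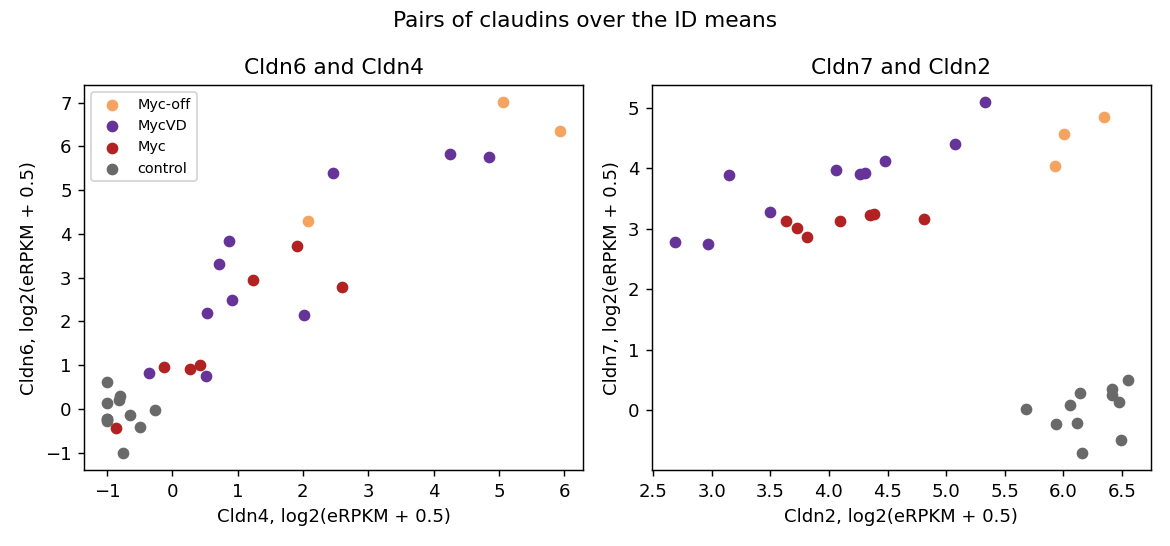
ID means of Cldn6 against Cldn4 and of Cldn7 against Cldn2, both axes as log2(eRPKM + 0.5), with 1 point per ID coloured by Myc-off, MycVD, Myc and control group. Cldn6 and Cldn4 run along 1 band through the tumour IDs, while control IDs have high Cldn2 with Cldn7 under 1 eRPKM.

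The genes whose pattern over all 31 ID means was most like that of each claudin were listed by Pearson's r on the log2 scale. These r follow mostly the differences between groups and are given as a description. Cldn4 and Cldn6 were among the nearest of each other (r = 0.936). Beside Cldn6, Cldn4 had St14 (0.939) and Tead4 (0.936) nearest, and Cldn6 had Spint1 (0.905) and Chrnb1 (0.903). Cldn7 had Sstr2 (0.979), Amot (0.972) and Cdhr2 (0.970). Cldn3 was nearest to Tat (0.983), Rdh9 (0.977) and Cyp2c29 (0.974), and Cldn1 to Mal2 (0.963), Smpd1 (0.955) and Foxa3 (0.948). Cldn2 had Map1lc3a (0.934), Lysmd4 (0.931) and Esrp2 (0.929), Cldn12 had Tmem30a (0.960) and Slc31a1 (0.958), and Cldn14 had Bhmt2 (0.929), Gramd3 (0.927) and Tlcd2 (0.926).

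Of the 8 genes, Cldn3 and Cldn4 are neighbours on chromosome 5. In Myc tumours Cldn3 was called lower and Cldn4 higher than control liver. For Cldn4 the ID means overlapped and the call was lost under several settings. Cldn12 is also on chromosome 5, Cldn7 on 11, Cldn1 and Cldn14 on 16, Cldn6 on 17 and Cldn2 on X. Without strand, reads of Cldn3 and Cldn14 cannot be told apart from those of overlapping long noncoding RNA genes (Wbscr25 and Gm31012). Promoter windows of RefSeq on GRCm38.p6, 250 bases before to 50 after each start and 13 in all for the 8 genes, were searched for 12 motifs on both strands, chosen with these results known. CAGGTG, an E-box to which zinc-finger repressors of epithelial genes such as Snail and Zeb proteins are known to bind, was in windows of Cldn3, Cldn4, Cldn6, Cldn7 and Cldn14 (5 of 13 windows) and in 20.21% of all 32851 windows. CACGTG, the preferred E-box of Myc with Max, was in none of the 13 and in 7.15% of all. GGGCGG, bound by Sp1, was in 7 of the 13 and in 35.66% of all, and TATAAA was in 1, that of Cldn2, and in 13.62% of all. The windows of the neighbours Cldn3 and Cldn4 are shown because these genes were called in opposite directions in Myc tumours. Those of Cldn6 and Cldn7 are shown because both, like Cldn4, were called higher than control liver in every tumour group. They run 5′ to 3′ on the gene's strand with the start at base 251, and capitals mark CAGGTG on either strand. The other window of Cldn7 holds no such match.
Cldn3, chr5:134985964-134986263, plus strand: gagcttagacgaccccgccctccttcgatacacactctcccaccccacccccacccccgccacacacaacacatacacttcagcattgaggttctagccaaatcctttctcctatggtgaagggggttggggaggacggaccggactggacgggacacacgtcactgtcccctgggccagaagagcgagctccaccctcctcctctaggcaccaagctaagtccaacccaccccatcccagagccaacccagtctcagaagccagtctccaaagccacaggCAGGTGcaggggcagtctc
Cldn4, chr5:134946885-134947184, minus strand: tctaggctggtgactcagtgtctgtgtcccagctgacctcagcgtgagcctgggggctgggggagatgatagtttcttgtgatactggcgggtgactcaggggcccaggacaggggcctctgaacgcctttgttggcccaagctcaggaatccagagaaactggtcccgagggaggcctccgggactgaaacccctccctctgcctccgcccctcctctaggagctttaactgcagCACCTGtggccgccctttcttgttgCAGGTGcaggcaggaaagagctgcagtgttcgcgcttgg
Cldn6, chr17:23679115-23679414, plus strand: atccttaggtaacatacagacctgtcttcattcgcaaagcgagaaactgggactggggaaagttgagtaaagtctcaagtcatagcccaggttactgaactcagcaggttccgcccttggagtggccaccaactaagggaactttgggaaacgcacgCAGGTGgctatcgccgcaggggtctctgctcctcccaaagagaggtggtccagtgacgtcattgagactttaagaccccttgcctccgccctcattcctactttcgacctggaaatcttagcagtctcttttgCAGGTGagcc
Cldn7, chr11:69965171-69965470, plus strand: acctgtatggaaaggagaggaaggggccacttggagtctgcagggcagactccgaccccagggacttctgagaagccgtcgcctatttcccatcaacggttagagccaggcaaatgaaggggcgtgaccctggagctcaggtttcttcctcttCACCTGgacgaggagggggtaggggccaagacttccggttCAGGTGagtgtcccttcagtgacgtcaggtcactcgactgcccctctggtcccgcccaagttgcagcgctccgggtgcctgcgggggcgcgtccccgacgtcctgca
A match describes the letters of a window and is not a shown binding site. In Cldn4 the matches start at bases 237 and 262, on either side of the start, in Cldn3 at base 282, in Cldn6 at bases 158 and 291, and in Cldn7 at bases 154 and 194.

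The partners of claudins in the tight junction were taken from a list of 36 genes, of which 33 were tested. In Myc tumours 17 were higher and 12 lower than in control liver, in Myc-off tumours 16 were higher and 4 lower than in Myc tumours, and in MycVD tumours 3 were higher and 2 lower than in Myc tumours. Over all tested genes 50.4% were higher and 29.7% lower in the first of these comparisons, 22.8% and 28.0% in the second and 6.14% and 9.69% in the third. The largest changes in Myc tumours were those of Ezr, the gene of the membrane to actin linker ezrin (37.7 ± 3.81 eRPKM in Myc tumours and 5.87 ± 1.62 in control liver, log2 fold change 2.62), Ybx3, the gene of a junction-associated Y-box protein (2.0), and Cgnl1, which encodes paracingulin (-1.67). In Myc-off tumours they were Epcam (17.3 ± 12.1 eRPKM in Myc-off tumours and 1.33 ± 0.779 in Myc tumours, log2 fold change 3.01, adjusted p = 5.7e-04), Marveld3, which encodes a protein of the occludin family (2.15), and Crb3, a gene of apical polarity (1.44). Epcam also led in MycVD tumours, at 8.91 ± 8.11 eRPKM (1.84 over Myc tumours, adjusted p = 0.012), where the polarity genes Amotl1 (-1.0) and Mpdz (-0.74) were lower. Against control liver 16 partners were higher and 12 lower in MycVD tumours and 20 were higher and 5 lower in Myc-off tumours (over all tested genes 49.2% and 31.1%, and 37.3% and 20.9%). The largest changes there were rises of Ezr (2.33 in MycVD and 2.83 in Myc-off tumours) and Epcam (2.32 and 3.49). Ildr2, which encodes an angulin, came next, at -2.22 in MycVD and -2.77 in Myc-off tumours.

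Of 12 adherens junction genes, 3 were higher and 9 lower in Myc tumours than in control liver, 7 higher and 1 lower in Myc-off than in Myc tumours, 3 higher and 1 lower in MycVD than in Myc tumours, 4 higher and 7 lower in MycVD tumours than in control liver, and 7 higher and 3 lower in Myc-off tumours than in control liver. The shares of all tested genes higher and lower were 50.4% and 29.7%, 22.8% and 28.0%, 6.14% and 9.69%, 49.2% and 31.1%, and 37.3% and 20.9%, in the same order. Plekha7 rose in Myc tumours by 2.06 and the nectin genes Pvrl1, Pvrl3 and Pvrl2 stood at -0.96, -0.96 and -0.92. Pvrl2 (1.36), Ctnna1 (0.63) and Jup (0.55) were higher in Myc-off than in Myc tumours. Cdh1, the gene of E-cadherin, averaged 69.2 ± 8.71 eRPKM in MycVD tumours and 53.8 ± 2.44 in Myc tumours (0.35, adjusted p = 0.0022).

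Other claudins were mostly too low to test: 6 of 18 passed the filter. Of these, 4 were higher and 1 lower in Myc tumours than in control liver, 1 higher and 1 lower in Myc-off than in Myc tumours, none was called between MycVD and Myc tumours, 3 were higher and 2 lower in MycVD tumours than in control liver, and 3 higher and 1 lower in Myc-off tumours than in control liver. These are counts over 6 genes, beside the shares of all tested genes just given. Cldn13, known in mouse from erythroid cells, had 1.2 to 34.3 eRPKM in Myc-off tumours, 0.535 to 15.2 in MycVD tumours, 1.85 to 39.4 in Myc tumours and 0 to 0.104 in control livers. Cldn18, the claudin of stomach and lung, had 0.274 to 40.0 eRPKM in Myc-off tumours (median 2.88) and 0.028 to 1.46 in Myc tumours (median 0.245). Its Myc-off ID means ran from 3.40 to 14.8 eRPKM. The log2 fold change was 2.82, and Cldn18 was listed at 0 in all control livers. Cldn18 passed the filter on low values only through its Myc-off IDs, so its calls, counted above, are a description only. Cldn5, the claudin of endothelium, was lower in Myc tumours than in control liver (-0.49, adjusted p = 0.040). It was also lower in MycVD tumours than in control liver (-1.06, adjusted p = 1.1e-05), and the ID means overlapped in both comparisons. Cldn9, which neighbours Cldn6, was not tested: it had 0.095 to 1.56 eRPKM in Myc-off tumours, at most 0.822 in Myc tumours, and was listed at 0 in control livers.

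Markers of the cells that the tissue can hold moved beside these claudins, and their part in the claudin results was not tested. In Myc tumours over control liver the counts higher and lower were 0 and 15 of 15 for hepatocytes, 0 and 10 of 10 for pericentral genes, 2 and 3 of 12 for bile duct cells, 12 and 0 of 12 for fetal liver genes, 9 and 0 of 9 for erythroid cells, 1 and 6 of 12 for endothelium, 5 and 2 of 9 for macrophages, 4 and 4 of 10 for stellate cells and 2 and 2 of 5 for gut and pancreas. In Myc-off over Myc tumours none of the erythroid, macrophage or stellate markers was called, and 2 and 0 of endothelial, 2 and 1 of pericentral, 2 and 1 of fetal liver and 2 and 0 of gut and pancreas genes were higher and lower. In MycVD over Myc tumours the counts were 6 and 0 for hepatocytes, 1 and 1 for bile duct cells, 1 and 3 for fetal liver genes, 0 and 3 for endothelium, 0 and 3 for macrophages and 1 and 0 for gut and pancreas, with none for the other lists. Over all tested genes the shares higher and lower were 50.4% and 29.7% in Myc tumours over control liver, 22.8% and 28.0% in Myc-off over Myc tumours and 6.14% and 9.69% in MycVD over Myc tumours. Hepatocyte markers summed to 997.6 to 2569.5 eRPKM in Myc-off, 1159.1 to 1696.5 in MycVD, 837.6 to 1538.0 in Myc and 1777.0 to 2957.7 in control libraries, and none of the 15 was at 0 throughout a group. Abundant markers can lie near the highest reads per kb of their library, which hardly followed depth. Myc libraries were the deepest (median 9.65 M reads, against 7.14 in Myc-off, 7.81 in MycVD and 7.32 in control). The part of depth in these sums and counts was not tested. The pericentral gene Cyp2e1 averaged 29.8 ± 18.8 eRPKM in Myc-off, 17.1 ± 21.1 in MycVD, 11.0 ± 8.60 in Myc tumours and 199.0 ± 38.0 in control liver, and Glul 100.6 ± 5.09, 65.7 ± 3.19, 61.7 ± 4.72 and 128.1 ± 10.4.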

How the data were processed

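RNA of 46 samples (31 IDs, 4 groups) was depleted of ribosomal RNA with Ribozero and made into TruSeq RNA v2 libraries, a kit that keeps no strand, per the labels' protocols. The authors deposited 1 table of exonic RPKM values (eRPKM) for 21671 genes in all samples. The submitters' processing notes name TopHat, TopHat2 2.0.8 and the mm9 build. The read counter, the annotation and the RPKM denominator were not given in the sources used here.

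Low values were whole multiples of the value of 1 read, which gave library sizes, gene lengths (20785 genes) and reads, with 100.0% of values whole within 0.001 reads. Values of tumours that share an ID were averaged. The filter asked for 3 IDs or more with 1 eRPKM or more, which kept 14566 genes and left out 7105. log2(eRPKM + 0.5) was fitted with limma 3.58.1 in R 4.3.3, with all 4 groups in 1 fit, no covariate and eBayes with trend, two-sided, with Benjamini-Hochberg adjustment and a threshold of 0.05. The 5 comparisons share groups. The fit was tested on simulated data. Descriptions and permutation tests used Python 3.11.15. PCR duplicates cannot be told from separate molecules in these reads, so intervals and floors cover counting error only.

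The members, the gene lists and the tests were chosen with earlier results of these data known. Named beside the 8 claudins were the 3 genes most like each over the 31 IDs (provisional names left out, and 1 gene not reported here), the 3 largest called changes per comparison among tight junction partners, up to 4 called adherens junction genes and other claudins, and the 2 most abundant genes of marker lists, of which only those that bear on a claudin result are given. Krt7, Krt19, Sox9, Cldn9 and the genes overlapping or neighbouring a claudin were named after their values were seen. Alternatives were pseudocounts, filters, scalings, treatments of tumours of an ID, weights, a depth term, leaving out each ID or the shallowest Myc-off library, and early control IDs only. Leaving out the 8 libraries with low Gapdh and limma voom on recovered reads were added after seeing the data.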

Additional observations from a re-analysis of the deposited data

Results flagged for a closer look

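Among the 7 Myc IDs and the 10 MycVD IDs the highest and lowest ID mean of each claudin were set against the rest, 16 groups in all, and about 1 in 20 such groups would stand out by chance. One did: MycVD ID133765 had 33.589 eRPKM of Cldn7, with the next ID at 20.6 eRPKM, a gap of 0.476 of the whole range of the group. The same ID had the highest Cldn2 and Cldn4 of the MycVD tumours. Without it Cldn7 stood at a log2 fold change of 0.56 over Myc tumours (limma adjusted p = 0.068). The call was likewise lost when most other single Myc or MycVD IDs were left out.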

How the results depend on the processing

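Of 1840 claudin fold changes recomputed under 46 alternatives, 1781 kept their direction and their side of the threshold, 33 lost the call, 14 gained it and 12 turned sign, all of these 12 among uncalled differences. In MycVD over Myc tumours 3 claudins were called, against 5 with every tumour as its own sample, with array weights or without the 8 libraries with low Gapdh. Tight junction partners called there numbered 11 with array weights and 9 with every tumour as its own sample, against 5. All genes called there numbered 4770 with array weights, 959 with a depth term and 3987 without those 8 libraries, and 1500 to 2653 when 1 ID was left out (1500 without Myc ID130395), against 2306. Claudins called in Myc-off tumours over control liver numbered 3 to 6 when 1 ID was left out, against 5. Signs turned in MycVD over Myc tumours for Cldn2 (0.173 with array weights, 0.225 without low-Gapdh libraries, and -0.284 to 0.010 when 1 ID was left out) and Cldn3 (0.019 with every tumour as its own sample, 0.151 with array weights, and -0.538 to 0.064 when 1 ID was left out). They turned in Myc-off tumours over control liver for Cldn1 (-0.148 with median-ratio scaling, -0.005 without the shallowest Myc-off library, -0.026 without low-Gapdh libraries, and -0.132 to 0.178 when 1 ID was left out) and Cldn2 (0.068 with quantile normalisation). The cause was not tested.

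Few reads stand behind Cldn4, Cldn6 and Cldn7 in control liver, at most 5, 14 and 11 per library, so the size of their fold changes depends on the scale. In Myc-off tumours over control liver they were 6.95, 6.89 and 5.26 with a pseudocount of 0.1 and 7.76, 7.17 and 5.41 with limma voom on recovered reads. No paired analysis was possible because the groups share no ID in the sample titles.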
